A study of Mus musculus with 72 samples.

Results

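Transcripts of 9 genes of alveolar macrophages and lipid handling (Chil3, Itgax, Mrc1, Ear2, Fabp4, Fabp5, Pparg, Ctsk and Atp6v0d2) were followed in liver and lung of irradiated mice. Their probes were found through the RefSeq accession that the array gives for each probe, and 13 of the 56605 probes belonged to these 9 genes. Female C57BL/6 J mice aged 6 to 8 weeks received 1 surface dose of X-rays to the whole body at 1.05 Gy/min, which was 1 or 2 Gy, 4 Gy, 8 Gy or 12 Gy, or were sham irradiated in the same type of container (0 Gy). Liver and lung were taken 48 h later from 3 animals per dose, and total RNA of each organ was hybridized to a 1-colour Agilent array, which gave 18 liver and 18 lung arrays with 3 per dose. Samples are called by the number that their labels give them, and whether the same number in both organs marks the same mouse is not given in the sources used here. A gene with several probes is represented by its brightest, and the other probes are given where they were measured.

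Alveolar macrophages are the resident macrophages of the air spaces, where they take up and break down surfactant lipid. GM-CSF drives the nuclear receptor gene Pparg in these cells as they mature, and PPARG in turn controls fatty acid binding proteins and other genes of lipid uptake and storage. Chil3 encodes a secreted chitinase-like lectin, Itgax the integrin CD11c, Mrc1 the mannose receptor CD206 and Ear2 a secreted ribonuclease of the eosinophil-associated family. Fabp4 and Fabp5 encode carriers of fatty acids inside the cell, Ctsk the lysosomal protease cathepsin K, and Atp6v0d2 a membrane subunit of the proton pump that acidifies lysosomes. None of the 9 is particular to alveolar macrophages. Itgax is also a dendritic cell gene, Mrc1 is found on liver sinusoidal endothelium and Kupffer cells, Fabp4 and Pparg are adipocyte genes, and Ctsk and Atp6v0d2 are known from osteoclasts.

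Markers of the cell types were set against the organ labels first. Of 12 further alveolar macrophage genes, including Siglecf, Marco and Car4, all 12 were well above background on all 18 lung arrays, whereas in liver Bhlhe41, Car4 and Olr1 were on none and 7 were on all 18. Clec4f, the defining lectin of Kupffer cells, had a log2 intensity of 13.66 to 13.71 in unirradiated liver, and in unirradiated lung it was not well above background on any of the 3 arrays. Among the irradiated lungs it was well above background only in 4 Gy samples 24 (6.95) and 4 (5.49). The part of liver RNA in these lungs was not tested. In liver the 9 genes are therefore described as genes, and not as a readout of alveolar macrophages. In both organs, fewer cells of a type and less RNA per cell cannot be told apart in such bulk RNA.

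The arrays lay on 5 slides, and dose followed the slide in part. In liver the 0 and 1 Gy arrays shared a slide with a pair of the 2 Gy arrays, and the 4 and 8 Gy arrays lay on another with 2 Gy sample 23 and 12 Gy sample 6. The 12 Gy livers 16 and 26 lay on the slide of the 0 and 1 Gy lungs. No liver at 4, 8 or 12 Gy shared a slide with the unirradiated livers. In lung the 0 and 1 Gy arrays lay on 1 slide, the 2 and 4 Gy arrays on another, and the 12 Gy arrays with 8 Gy sample 25 on a slide of a second scan day. On that last slide 54.1% to 54.8% of the spots were well above background, against 59.2% to 64.0% on the other lung arrays and 46.1% to 54.0% on the liver arrays. In lung, the differences of 2 Gy and above from 0 Gy cannot be told apart from the slide. No spot was saturated on any array.

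The promoters of Chil3, Itgax and Mrc1 are shown because these genes fell in liver at 1 or more doses and have an entry in the RefSeq promoter table of build GRCm38.p6. That table held 8 promoters for 6 of the 9 genes, and Fabp4, Fabp5 and Atp6v0d2 had no entry. Each sequence covers the 250 bases before the annotated transcript start, on the strand of the gene: chr3:106167565-106167814 on the minus strand for Chil3, chr7:128129300-128129549 on the plus strand for Itgax, and chr2:14229164-14229413 on the plus strand for Mrc1. Capitals mark matches, on either strand, of AGGAAG, 1 form of the site bound by ETS factors such as the macrophage factor PU.1. Shorter or other forms of that site were not searched and are not marked.
Chil3: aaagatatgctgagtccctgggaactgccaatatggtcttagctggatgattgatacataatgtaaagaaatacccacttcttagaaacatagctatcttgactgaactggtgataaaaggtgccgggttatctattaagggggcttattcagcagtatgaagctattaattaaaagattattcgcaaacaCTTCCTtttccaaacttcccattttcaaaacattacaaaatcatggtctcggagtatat
Itgax: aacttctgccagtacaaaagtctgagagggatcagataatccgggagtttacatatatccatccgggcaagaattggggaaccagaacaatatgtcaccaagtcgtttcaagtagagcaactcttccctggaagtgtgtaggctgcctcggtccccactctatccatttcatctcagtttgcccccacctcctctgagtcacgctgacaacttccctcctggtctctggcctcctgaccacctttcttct
Mrc1: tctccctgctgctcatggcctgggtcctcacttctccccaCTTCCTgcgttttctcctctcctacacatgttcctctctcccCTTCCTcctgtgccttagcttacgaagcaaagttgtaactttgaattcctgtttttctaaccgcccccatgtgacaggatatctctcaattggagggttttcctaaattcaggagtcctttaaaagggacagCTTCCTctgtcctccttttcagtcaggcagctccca
Chil3 had 1 match of AGGAAG, 59 bases before the start, Mrc1 had 3, and Itgax had none, which says nothing of other forms of the site. AGGAAG is common, and 29.5% of all 32851 promoters of that length held it on either strand. AGGTCA, the core of nuclear receptor sites, held by 14.0% of promoters, and TATAAA, the TATA box held by 12.4%, were in none of the 3 sequences. The motifs do not overlap each other in these windows, and a match describes letters and not a bound site.

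In unirradiated animals, 5 of the 9 genes were higher in lung than in liver, Chil3 by the widest margin. With all 36 arrays normalized together, Chil3 had a log2 intensity of 16.03 ± 0.29 (SD, n = 3) in lung and 7.33 ± 0.37 (SD, n = 3) in liver, a 415-fold difference (limma, adjusted p = 1.24e-19). Fabp4 was 14.4-fold higher in lung (16.10 ± 0.70 against 12.25 ± 0.03, SD, n = 3 each), Ear2 14.3-fold, Itgax 13.3-fold and Ctsk 9.01-fold (limma, adjusted p of 5.54e-09 or less for these 4). Such calls were frequent between the organs, and 35.5% of the 47376 probes tested passed the same criteria, which are a log2 change of over 1 in either direction with an adjusted p under 0.05. The lung and liver values of 7 of the 9 genes did not overlap, as held for 60.1% of all probes.

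**Figure D1:**
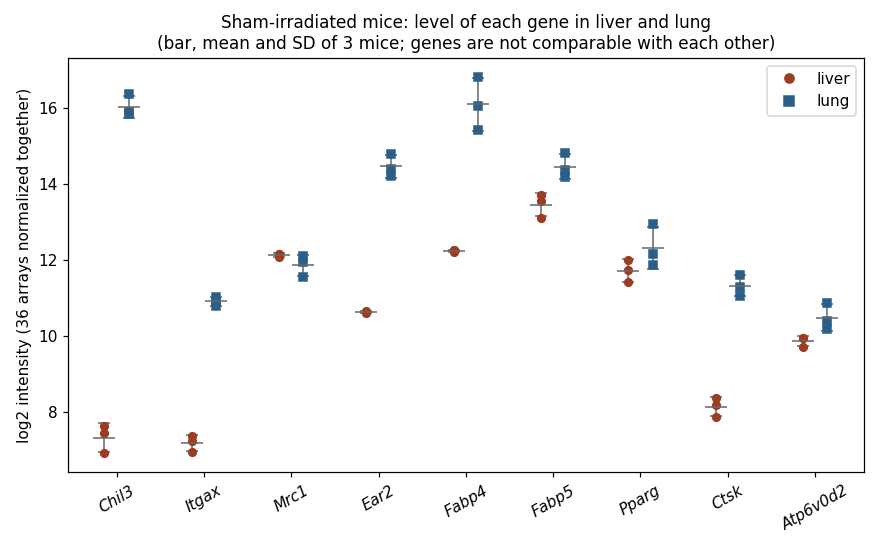
Log2 intensity of the 9 genes in unirradiated liver and lung, with all 36 arrays normalized together, 1 point per sample and 3 per organ. Chil3 lies near 7.33 in liver and 16.03 in lung, while the Mrc1 values of the organs overlap.

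The other 4 genes were not called between the organs at 0 Gy. Fabp5 was at 14.46 ± 0.32 in lung and 13.46 ± 0.31 in liver (SD, n = 3 each, difference 1.00, limma adjusted p = 0.000149), which missed the size criterion. Pparg differed by 0.61 (adjusted p = 0.0383), Atp6v0d2 by 0.61 (adjusted p = 0.0829) and Mrc1 by -0.27 (adjusted p = 0.452), all as lung minus liver. The second Atp6v0d2 probe gave -0.96 (adjusted p = 0.0768), the opposite sign of the first. Over the alternative analyses the lung minus liver difference ran from -0.22 to 1.09 for Fabp5, from -0.12 to 0.70 for Pparg, from -0.17 to 0.80 for Atp6v0d2 and from -0.92 to 0.09 for Mrc1, so that no direction is given for these 4. The second Itgax probe was well above background in lung only, where it was at least 1.55-fold higher (adjusted p = 0.0947).

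After irradiation, Chil3, Fabp5 and Itgax fell with dose in liver, Mrc1 fell at 8 Gy, and Atp6v0d2 rose at 12 Gy. In liver no gene of the 9 was called at 1 or 2 Gy, where 3 and 4 genes had an unadjusted p below 0.05 and where 0.0339% and 0.245% of the 38362 probes tested were called. At 4 Gy 2 of the 9 were called, both lower, against 0.944% of all probes. At 8 Gy 4 were called, all lower, against 2.21% of all probes, and at 12 Gy 3 were lower and 1 higher, against 2.06%. Every dose was compared with the same 3 unirradiated livers. On a linear trend over dose, given as the log2 change over 12 Gy, 3 of the 9 were called and all fell, against 2.03% of all probes, and the median trend was -0.85 over the 9 genes and 0.00391 over all probes. With the slide as a fixed term in the model none of the 9 was called on the liver trend. Chil3 was then at -2.28 (limma, adjusted p = 0.0886), Fabp5 at -2.18 (adjusted p = 0.073) and Itgax at -1.54 (adjusted p = 0.0632). With the slide as a random block these 3 trends stayed called, at -2.28, -2.62 and -1.52 (adjusted p of 0.000288 or less). The 12 Gy values with the fixed term were -3.02 for Chil3 and -2.92 for Fabp5. They rest on 12 Gy sample 6 alone, since 12 Gy samples 16 and 26 were the only livers on their slide. The slide of sample 6 was linked to that of the controls only by the 2 Gy arrays, with sample 23 alone on it. The 4 and 8 Gy values with that term share this link.

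Chil3 was low in liver to begin with and was lost into the background as the dose rose. Its log2 intensity in samples 1, 11 and 21 at 0 Gy was 6.53, 6.69 and 6.02, and in the 1 Gy samples 2, 12 and 22 it was 6.06, 6.38 and 6.10. At 2 Gy the samples had 4.89, 5.39 and 5.92, and 1 of them was still well above background. All 9 livers at 4, 8 and 12 Gy were below that level and none overlapped the controls: the means were 4.84 ± 0.13, 4.10 ± 0.29 and 4.15 ± 0.21 (SD, n = 3 each). Compared with 0 Gy, Chil3 was at least 2.98-fold lower at 4 Gy (limma, adjusted p = 0.00308), at least 4.18-fold lower at 8 Gy (adjusted p = 7.35e-05) and at least 4.31-fold lower at 12 Gy (adjusted p = 6.53e-05). Each limit sets the brighter group against the higher of the dim value and the lowest level well above background on that array. The fitted trend was -2.34 ± 0.30 (SE, adjusted p = 7.59e-05). On the slide that held the controls, 2 Gy samples 3 and 13 lay below all 3 controls, and neither was well above background.

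Itgax ran a similar course in liver. Samples 1, 11 and 21 at 0 Gy had 6.44, 6.33 and 6.05, above every irradiated liver, and the group means then went down in the order of dose, to 5.70, 5.65, 5.52, 4.73 and 4.64 from 1 to 12 Gy. The means at 1, 2 and 4 Gy were within the spread of their samples of each other. None of the 6 livers at 8 and 12 Gy was well above background, with values from 4.46 to 4.78. Itgax was at least 2.91-fold lower at 8 Gy (limma, adjusted p = 3.14e-05) and at least 3.11-fold lower at 12 Gy (adjusted p = 1.17e-05), and the fitted trend was -1.53 ± 0.16 (SE, adjusted p = 1.03e-05). The other 2 Itgax probes were on no liver array well above background.

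Fabp5 also fell with dose in liver, and unlike Chil3 and Itgax it stayed well above background on all 18 arrays. Samples 1, 11 and 21 at 0 Gy had 12.86, 13.56 and 13.36. The 3 livers at 4 Gy had 11.71, 11.12 and 10.76, those at 8 Gy 10.73, 10.42 and 10.91, and those at 12 Gy 10.48, 10.83 and 10.38. No liver at 2 Gy or above overlapped the controls, and the order of the dose means was the order of dose from 0 to 12 Gy. The fall was 4.18-fold at 4 Gy (log2 change -2.06, limma adjusted p = 0.000306), 5.97-fold at 8 Gy (adjusted p = 1.86e-05) and 6.49-fold at 12 Gy (-2.70 ± 0.23, SE, adjusted p = 7.71e-06). All 4 Gy livers lay on another slide than the controls, and with the slide as a fixed term the 4 Gy value was -2.20 (adjusted p = 0.0804) and was not called, while as a random block it was -2.07 (adjusted p = 0.000929). The trend was -2.75 ± 0.32 (SE, adjusted p = 3.15e-05). Within the slide of the controls, the difference at 2 Gy was -0.88, close to the -0.83 over all 3 samples (adjusted p = 0.15).

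Fabp4, its relative, lay at 11.84, 11.79 and 11.85 in the unirradiated livers and at 10.95, 10.69 and 10.88 at 12 Gy, without overlap. That 12 Gy difference of -0.99 ± 0.18 (SE, limma adjusted p = 0.00325) and the trend of -0.88 ± 0.15 (adjusted p = 0.000989) fell short of the size criterion. The second Fabp4 probe met it, with -1.11 at 8 Gy (adjusted p = 0.00356), -1.47 at 12 Gy (adjusted p = 0.000447) and a trend of -1.32 (adjusted p = 0.000126). Both probes had a lower mean at every dose than at 0 Gy.

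Mrc1 lay at 11.73, 11.72 and 11.64 in unirradiated liver. At 8 Gy the values were 9.97, 10.72 and 10.71, a 2.35-fold fall (-1.23 ± 0.23, SE, limma adjusted p = 0.00532). At 12 Gy they were 10.99, 10.79 and 11.00, also without overlap with the controls, and the difference was -0.77 (adjusted p = 0.0618). The 8 Gy call was lost without sample 5, whose value was the lowest of the 18 livers (-0.98 without it), and with the slide as a fixed term (-0.92, adjusted p = 0.358), but not with the slide as a random block (-1.21, adjusted p = 0.0145). The trend was -0.85 (adjusted p = 0.0354), below the size criterion.

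Atp6v0d2 was the only one of the 9 called higher in liver. Its 0 Gy livers had 9.23, 8.95 and 9.24, its 4 Gy livers 10.07, 10.08 and 10.12, and its 12 Gy livers 10.01, 10.55 and 9.97. The rise at 12 Gy was 2.05-fold (1.04 ± 0.28, SE, limma adjusted p = 0.0403), just past the criteria, and it was called in 14 of 30 alternative analyses. With the slide as a fixed term, which leaves sample 6 alone for 12 Gy, it was 0.42. With the slide as a random block it was 1.00 (adjusted p = 0.0793). The second probe gave 0.78 at 12 Gy (adjusted p = 0.38), the same sign without a call. Sample 2 at 1 Gy, with 10.09, already lay in the range of the higher doses.

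The remaining 3 genes gave no call in liver. Ear2 ran from 9.39 to 10.63 over the 18 livers, and its 12 Gy values of 9.39 to 9.44 lay below the 9.98 to 10.02 of the controls (-0.59, limma adjusted p = 0.161). Its probe may also take up RNA of near-identical genes of the Ear family, so the values are uncertain as to the member. Pparg ran from 10.88 to 11.89, with a difference of 0.57 at 2 Gy (adjusted p = 0.149) and a trend of -0.08 with a 95% interval from -0.44 to 0.27. Ctsk ran from 6.49 to 7.47, and its trend was -0.29 with an interval from -0.60 to 0.03 (adjusted p = 0.262). Counted over the 9 genes, the samples of 3, 5, 6, 6 and 7 genes did not overlap the controls from 1 to 12 Gy in turn, beside 13.7%, 18.8%, 32.3%, 31.9% and 29.8% of all probes.

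In lung, no gene of the 9 was called at any dose or on the trend. That holds for the brightest probe of each gene, by limma with adjustment over all probes, and 1, 0, 0, 1 and 2 of the 9 had an unadjusted p below 0.05 from the lowest dose to the highest. Of all 43979 probes tested in lung (43976 at 4 Gy), 0.0227%, 0.443%, 1.46%, 2.52% and 7.32% were called at these doses, and 7.05% on the trend. On the trend 5 of the 9 had an unadjusted p below 0.05. The median trend was -0.47 over the 9 genes and 0.0810 over all probes. The samples of 1 gene at 1 Gy and of 2 genes at 12 Gy did not overlap the controls, beside 13.1% and 34.9% of all probes, and those of no gene did at 2, 4 and 8 Gy, beside 15.8%, 19.4% and 17.5%.

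**Figure D2:**
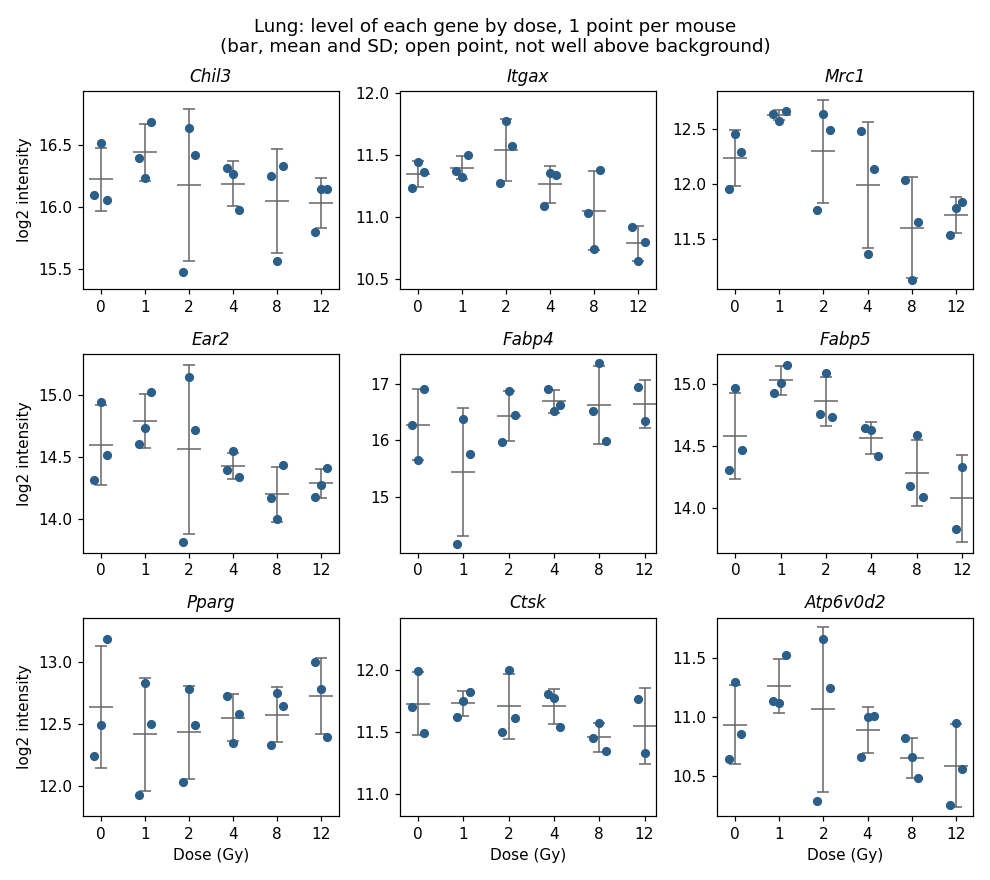
Log2 intensity of each of the 9 genes in lung against dose in Gy, 1 point per sample, with the mean and SD of a dose as bars (3 samples, or 2 at 12 Gy for Fabp4, Fabp5 and Ctsk). Chil3 stays between 15.48 and 16.69 on all 18 arrays, and Fabp4 spreads most, from 14.17 to 17.36.

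Chil3 was not called in lung at any dose. Its 0 Gy lungs had 16.10, 16.52 and 16.06 and its 12 Gy lungs 15.80, 16.15 and 16.15, with overlap. The 12 Gy difference was -0.20 with a 95% interval from -0.78 to 0.39 (limma, adjusted p = 0.651), and the trend was -0.30 with an interval from -0.74 to 0.13 (adjusted p = 0.284). Its spots were bright and not saturated.

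Fabp5, Itgax and Mrc1 had trends in lung that passed the adjusted p and missed the size criterion. Fabp5 was -0.79 ± 0.20 (SE, limma adjusted p = 0.00684, 17 arrays), Itgax -0.65 ± 0.14 (adjusted p = 0.00201) and Mrc1 -0.83 ± 0.25 (adjusted p = 0.0151). Without the slide of the second scan day, which held all 12 Gy lungs, these trends were -0.64 (adjusted p = 0.316), -0.74 (adjusted p = 0.0928) and -1.28 (adjusted p = 0.141). The signs held on the other slides, and the calls at the adjusted p did not.

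Lung Itgax had 11.23, 11.44 and 11.36 at 0 Gy and 10.92, 10.64 and 10.80 at 12 Gy, without overlap (-0.56, limma adjusted p = 0.0321). At 8 Gy sample 25, on the slide of the 12 Gy lungs, had 11.38 against 11.03 and 10.74 for samples 5 and 15 on the earlier slide, and was the highest of the 3. Lung Fabp5 was highest at 1 Gy, with 14.93, 15.01 and 15.16, beside 14.31, 14.97 and 14.47 at 0 Gy and 13.83 and 14.33 at 12 Gy. Lung sample 16 at 12 Gy had 1578 spots flagged as outliers by the scanner software, against 110 to 600 on the other lung arrays. Its spots for Fabp5, for the brightest Fabp4 probe and for Ctsk were among them, which left 2 samples at 12 Gy. Lung Mrc1 went from 11.95, 12.45 and 12.29 to 11.53, 11.78 and 11.83 at 12 Gy (-0.51, adjusted p = 0.225).

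Fabp4 varied widely between lungs of 1 dose. Its 0 Gy lungs had 16.26, 15.65 and 16.91, its 1 Gy lungs 14.17, 16.37 and 15.75, and its 8 Gy lungs 16.51, 17.36 and 15.99. The SD within a dose reached 1.13 at 1 Gy, and the trend was 0.76 with a 95% interval from -0.23 to 1.75 (limma, adjusted p = 0.236). The second Fabp4 probe gave a trend of 0.57 (adjusted p = 0.322).

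The lungs that were high in Fabp4 were also high in several adipocyte genes. Over 17 lungs the Pearson r of Fabp4 was 0.93 with Plin1, the coat protein of adipocyte lipid droplets, 0.84 with Adipoq, 0.81 with Lipe, 0.73 with Cfd and 0.69 with Pparg, and it was -0.41 with the endothelial cadherin Cdh5. For the PPARG target gene Cd36 it was -0.31, and r is not given here for all 8 adipocyte genes examined. The genes share their arrays and normalization, and the values are descriptions. Sample 2 at 1 Gy was the lowest lung for Fabp4 (14.17), Plin1 (8.19) and Adipoq (11.83), and without it r was 0.83 with Plin1, 0.64 with Adipoq, 0.56 with Lipe, 0.35 with Cfd and 0.57 with Pparg. All 8 adipocyte genes examined were well above background on all 18 lung arrays, and Plin1 was on no liver array. Their summed level on the log2 scale was 16.52 to 17.25 at 0 Gy and 16.61 to 17.11 at 12 Gy in lung, beside 9.61 to 10.12 and 9.54 to 9.95 in liver, and none of the 8 was called on the lung trend (limma, 0 of 8 also at the adjusted p alone). The part of adipocyte RNA in the lung Fabp4 values was not tested.

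**Figure D3:**
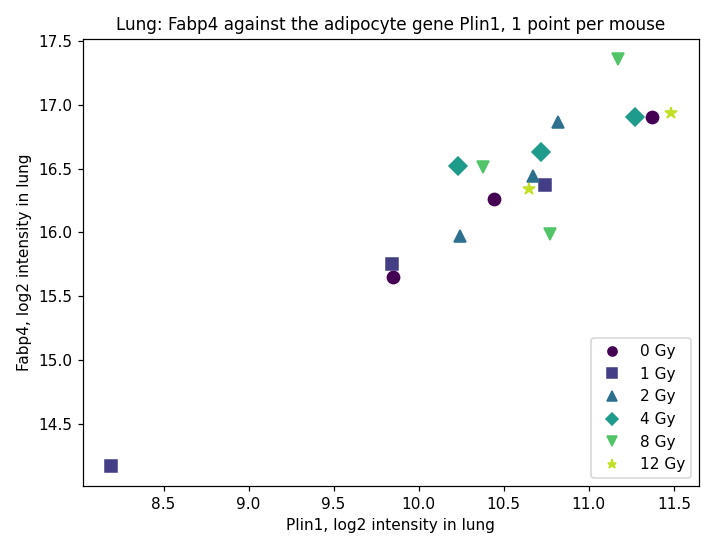
Log2 intensity of Fabp4 against that of Plin1 in 17 lungs, 1 point per sample. The points run along a line (Pearson r of 0.93), with 1 Gy sample 2 at the lower left at 14.17 and 8.19.

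Pparg, Ear2 and Ctsk passed no criterion on the lung trend. Pparg ran from 11.93 to 13.19 with a trend of 0.20 and a 95% interval from -0.24 to 0.64 (limma, adjusted p = 0.512). Ear2 ran from 13.82 to 15.15, with a trend of -0.47 and an interval from -0.90 to -0.04 (adjusted p = 0.0901). Ctsk ran from 11.33 to 12.00, with a trend of -0.28 and an interval from -0.59 to 0.04 (adjusted p = 0.174). For Atp6v0d2 the probes differed: the brighter gave a trend of -0.56 (adjusted p = 0.0631), and the dimmer -1.55 ± 0.39 (SE, adjusted p = 0.00547), which was called. On the dimmer probe the 12 Gy lungs lay at 6.41, 6.22 and 6.33 and the 0 Gy lungs at 6.54, 8.19 and 7.79, without overlap, and those at 2 Gy ran from 6.21 to 8.39.

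The trends of 5 of the 9 genes differed between the organs in a direct test of the difference over all 36 arrays, against 7.24% of all 47376 probes. The difference, lung minus liver over 12 Gy on the log2 scale, was 2.79 ± 0.45 for Chil3 (SE, limma adjusted p = 9.49e-05), 1.62 ± 0.52 for Fabp4 (adjusted p = 0.0272), 1.6 ± 0.36 for Fabp5 (adjusted p = 0.00244), 1.44 ± 0.25 for Itgax (adjusted p = 0.000188) and -1.48 ± 0.33 for Atp6v0d2 (adjusted p = 0.00248). The second probes of Fabp4 and Atp6v0d2 were called in the same directions, with 1.72 and -1.93. The second Itgax probe, which was not well above background on any liver array, gave -0.33 (adjusted p = 0.635). Mrc1 had close trends in liver and lung, and its difference was -0.15 with a 95% interval from -0.87 to 0.56, while Ear2 (-0.07), Ctsk (-0.02) and Pparg (0.29) were not called either. The size of the Chil3 difference rests on liver arrays where Chil3 was not well above background, 11 of 18, and it ran from 1.25 to 5.08 over 30 alternative analyses. Itgax was well above background on 10 of 18 livers, and its difference ran from 0.5 to 2.66 and was called in 26 of 30. With the slide as a fixed term none of the 9 was called, with values of 2.47 for Chil3, 1.84 for Fabp4, 1.32 for Fabp5, 0.76 for Itgax and -0.44 for Atp6v0d2. With the slide as a random block 4 were called, Chil3 (2.73, adjusted p = 0.00118), Fabp5 (1.5, adjusted p = 0.0138), Itgax (1.37, adjusted p = 0.00298) and Atp6v0d2 (-1.35, adjusted p = 0.0222). Without the lung slide of the second scan day only Fabp4 was called, at 2.72 (adjusted p = 0.0393), while Chil3 was at 2.5 (adjusted p = 0.0702), Fabp5 at 1.80 (adjusted p = 0.0804), Itgax at 1.32 (adjusted p = 0.0707) and Atp6v0d2 at -1.44 (adjusted p = 0.176).

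**Figure D4:**
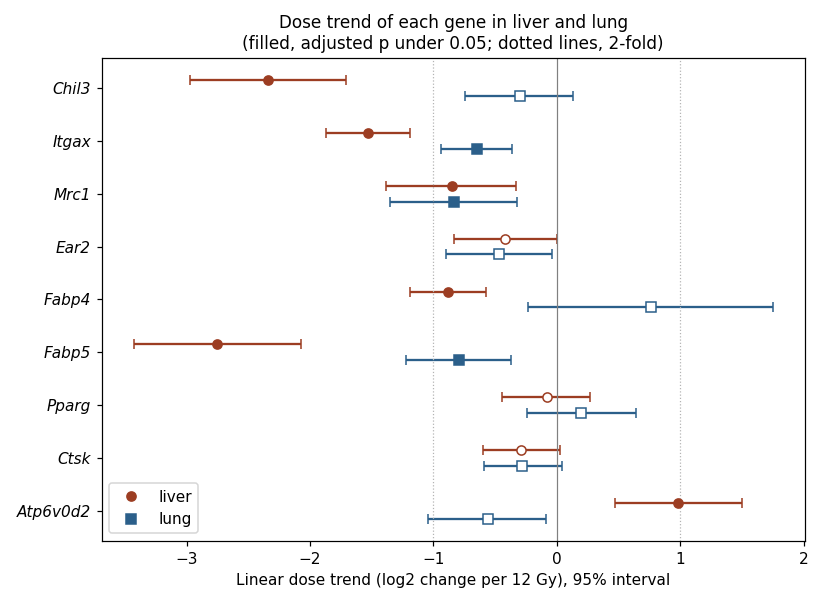
Linear dose trend of each of the 9 genes in liver and in lung, as the log2 change over 12 Gy with its 95% interval. Chil3, Fabp5 and Itgax lie far below 0 in liver (-2.34, -2.75 and -1.53) and between -0.30 and -0.79 in lung, while the Mrc1 trends lie at -0.85 and -0.83.

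Across the 18 lungs, where Chil3, Ear2 and Atp6v0d2 were well above background on every array, these 3 genes varied together. Chil3 and Ear2 had a Pearson r of 0.89, Atp6v0d2 and Ear2 0.87, and Atp6v0d2 and Chil3 0.77, and around the dose means they still had 0.89, 0.82 and 0.74. Sample 3 at 2 Gy, for example, was the lowest lung for both Chil3 (15.48) and Ear2 (13.82), and sample 13 of the same dose was the highest for Ear2 (15.15).

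Among the 14678 genes measured on all 18 lung arrays, those most like Chil3 were Ear2 (0.892), Tfec (0.835) and Siglecf (0.823), and those most like Atp6v0d2 were Ear1 (0.934), Tfec (0.933) and Siglecf (0.907). Siglecf is a lectin by which alveolar macrophages are sorted, and it is also one of the eosinophil genes examined. Those most like Itgax in lung were Il1rn (0.906), Ctss (0.894) and Ear10 (0.888), and those most like Fabp4 were the adipocyte genes Ucp1 (0.945), Plin1 (0.934) and Adig (0.929), over 17 arrays. In liver, among 12346 genes, Fabp5 was nearest to Myl9 (0.969), Pnpla7 (0.958) and Flna (0.957), Itgax, well above background on 10 of the 18 livers, to the leukocyte genes Lsp1 (0.947), Thy1 (0.932) and Coro1a (0.931), and Ear2 to its relative Rnase2a (0.965), the formyl peptide receptor gene Fpr1 (0.902) and Ear10 (0.895). In lung Ear2 was nearest to Fpr1 (0.913), Tfec (0.909) and Ear1 (0.901). Chil3 was above background on too few liver arrays, 7 of 18, for such a ranking. These values share dose and arrays and carry no test.

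Of the 12 further alveolar macrophage genes, 2 fell and 2 rose on the lung trend, on which 7.05% of all probes were called. Lpl and Cidec of these 12 are also among the PPARG target genes given below. The ribonuclease gene Ear1 fell by 1.25 on the log2 scale (SE 0.33, limma adjusted p = 0.00787) and the scavenger receptor gene Olr1 by 1.02 (adjusted p = 0.011), while Lpl, lipoprotein lipase, rose by 1.07 (adjusted p = 0.000472) and the scavenger receptor gene Marco by 1.00 (adjusted p = 0.00572). The Marco value rests in part on sample 16 at 12 Gy, the array with the 1578 outlier spots, with 14.18 beside 12.76 and 12.52, and Marco was called in 2 of 4 other scalings. The median trend of the 12 was 0.04, beside 0.08 over all probes, and without the slide of the second scan day none of the 12 was called. Their summed level was 15.75 to 16.32 at 0 Gy and 16.39 to 16.63 at 12 Gy. In liver 0 of the 9 measured were called, 4 passed the adjusted p alone, and Krt79 (-0.99), Plet1 (-0.97), Cidec (0.72) and Abcg1 (-0.55) were those 4.

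Relatives of Chil3 and Ear2 were called in lung where these 2 genes were not, a difference that was not tested. Of 7 chitinase-like and Ear genes measured there, 3 fell. These were Chil4, a close relative of Chil3 (-2.48, SE 0.41, limma adjusted p = 0.000237), Ear10 (-1.5, adjusted p = 0.000406) and Ear1 (-1.25). The median trend was -0.97 beside 0.08 over all probes, and none of the 7 was called without the slide of the second scan day. In liver none of 5 was called. Probes of such near-identical genes may share RNA, so the member is uncertain. Eosinophils also express Ear genes, and of 6 eosinophil genes measured in lung only Il5ra fell (-1.84, adjusted p = 1.76e-05), while the eosinophil peroxidase gene Epx was on no array well above background. The part of eosinophil RNA in the Ear2 values was not tested.

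Pparg itself was not called, and neither were its partners. Of 10 genes of the GM-CSF and nuclear receptor axis, none was called in either organ on the trend. In liver the GM-CSF receptor genes Csf2ra (-0.70, limma adjusted p = 0.00213) and Csf2rb (-0.53, adjusted p = 0.0163) passed the adjusted p alone, as did Csf2ra (-0.68), Rxrb (0.76), Ppard (0.75) and Rxra (0.71) in lung. Without the slide of the second scan day 2 of the 10, Csf2rb and the gene of PU.1, Spi1, were called lower in lung. Of 14 PPARG target genes, several of which other PPAR receptors also control, 4 rose on the lung trend and none fell: Angptl4, an inhibitor of lipoprotein lipase, by 2.66 (adjusted p = 4.01e-05), the pyruvate dehydrogenase kinase gene Pdk4 by 2.27 (adjusted p = 0.00109), Pck1 by 1.93 (adjusted p = 0.0292) and Lpl by 1.07. The median was 0.83, and without the slide of the second scan day it was 0.87 and only Angptl4 was called. In liver 2 of 13 rose, Angptl4 by 1.52 (adjusted p = 0.00114) and Pdk4 by 1.30 (adjusted p = 0.0121), with a median of 0.13.

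Calls on the trend in the families of the other members stand beside 2.03% of all probes in liver and 7.05% in lung. Of the 8 other Fabp genes, Fabp12 fell in liver by 1.17 (limma, adjusted p = 0.0102), and in lung Fabp1 fell by 1.15 (adjusted p = 0.0327) and the muscle gene Fabp3 rose by 1.04 (adjusted p = 0.0147). Fabp1 is also an abundant hepatocyte gene. The summed level of 5 hepatocyte genes ran from 8.58 to 15.88 over the lung arrays and from 9.09 to 15.88 at 4 Gy alone, Fabp1 was called in 2 of 4 other scalings, and the part of hepatocyte RNA in it was not tested. In lung the median of these 8 changed sign with the scaling of the arrays. Of 9 other cathepsins, Ctsc, which activates granule proteases, fell in lung by 1.27 (adjusted p = 0.00311), and none was called in liver. Of 15 other subunits of the proton pump none was called in either organ, and 1 in liver and 6 in lung passed the adjusted p alone, the widest being Atp6v1a in lung at 0.70. Of the osteoclast genes none of 5 in liver and none of 6 in lung was called. Without the slide of the second scan day the lung calls of the Fabp and cathepsin families were lost, and Ctss and the osteoclast gene Dcstamp were called lower there.

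Some of these transcripts are also made by other leukocytes. The dendritic cell list, which bears on Itgax, had 3 of 8 genes called in liver and 4 of 8 in lung, all lower, but with a background offset of 50 none was called in liver and the median there went from -0.75 to -0.32. The trend of Ccr7 was -2.09 in liver and -3.12 in lung (limma, adjusted p = 0.00073 and 2.29e-05), and that of Flt3 -1.29 and -2.82. The summed level of the 8 went from 10.04 to 10.20 at 0 Gy to 8.92 to 9.03 at 12 Gy in liver, and from 12.25 to 12.49 to 9.94 to 10.49 in lung. Of 7 monocyte genes, Ccr2 (-2.31, adjusted p = 1.59e-05) and Treml4 (-2.10, adjusted p = 0.000107) fell in lung and none was called in liver. Ly6c2 was at 0.89 in lung (adjusted p = 4.51e-05), below the size criterion. The median trend of the 7 in lung was -0.48, while their summed level was 17.22 to 17.26 at 0 Gy and 18.37 to 18.39 at 12 Gy. Such a sum of intensities is set mostly by its brightest genes, and all 12 Gy lungs lay on the slide of the second scan day.

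For Mrc1 and Fabp4 in liver, the endothelial and Kupffer cell lists are given beside the values. Tek was the 1 endothelial gene of 10 called in liver (-1.07, limma adjusted p = 0.000194), and 5 of the 10 passed the adjusted p, all lower. The summed endothelial level was 14.23 to 14.33 at 0 Gy and 13.82 to 13.90 at 12 Gy. Of 7 Kupffer cell genes none was called in liver, but Folr2 (-0.85), Timd4 (-0.77), Clec4f (-0.53) and Cd5l (-0.50) passed the adjusted p, and the summed level was 15.56 to 15.72 at 0 Gy and 15.14 to 15.29 at 12 Gy. Of 12 general macrophage genes 6 were lower at the adjusted p alone in liver and Lyve1, a receptor of sinusoidal endothelium and some macrophages, rose by 1.69 (adjusted p = 0.000108). The part of these cells in the changes of Itgax, Mrc1 and Fabp4 was not tested.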

How the data were processed

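RNA of 36 organ samples was measured on Agilent mRNA arrays, and the 36 miRNA arrays of the series were not used here. The authors deposited the output of Agilent Feature Extraction (version 11.5.1.1 per the file headers), with raw intensity values for the spots and their surroundings that had not been made comparable across arrays. Their deposited table of series values is also a linear intensity, by a procedure that is not stated, and served as an alternative.

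Median spot intensity was background-corrected with normexp (offset 0). Spots flagged as outliers (0.432%) were dropped. The 18 arrays of an organ were quantile-normalized together, as were all 36 for comparisons between organs, and log2 values of the spots of a probe were averaged. Probes detected well above background on 1 array or more were tested with limma 3.58.1 in R 4.3.3 on 6 dose groups, or on a linear slope per Gy given over 12 Gy, with Benjamini-Hochberg adjustment over all of them. Calls needed a log2 change of over 1 in either direction with an adjusted p under 0.05, as in the study's methods. The procedure was tested on simulated data. Precision is limited by the 3 arrays of a dose.

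Of the 56605 probes, 34566 had an accession in the RefSeq table, which named 23787 genes, and the Ensembl transcript names were not matched here. All 9 genes are named at every dose. From each further list at most 4 genes per organ are named, those with the widest trend among those with an adjusted p under 0.05, with its defining genes. The genes and lists were chosen with earlier results of these data known. Alternatives were another background offset, the scanner's processed signal, the series values, scaling to the 75th percentile, other filters, averaging the probes of a transcript, the slide in the model as a fixed or random term, and leaving out each sample. Values without the slide of the second scan day or without the 12 Gy livers were added after seeing the data.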

Additional observations from a re-analysis of the deposited data

Results flagged for a closer look

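Of the 9 genes, 5 had a dose trend that differed between lung and liver in the direct test of the difference, as lung minus liver over 12 Gy on the log2 scale. That test used all 36 arrays normalized together. The trends of single organs came from the 18 arrays of the organ normalized alone, so they do not subtract to the differences. The difference was 2.79 for Chil3 (limma, adjusted p = 9.49e-05), which reached the background in liver, so that the size depends on the treatment of background (1.25 to 5.08 over 30 alternatives), and was not called in lung. It was 1.6 for Fabp5 (adjusted p = 0.00244) and 1.44 for Itgax (adjusted p = 0.000188), both called lower on the liver trend and not called on the lung trend (-0.79 and -0.65). Itgax too reached the background in liver, at 8 and 12 Gy, and its difference ran from 0.5 to 2.66 over 30 alternatives. For Fabp4 it was 1.62 (adjusted p = 0.0272), between a liver trend of -0.88 and a lung trend of 0.76, and the lung values varied with several adipocyte genes. Atp6v0d2 went the other way, with -1.48 (adjusted p = 0.00248). On its brighter probe neither the liver trend (0.98) nor the lung trend (-0.56) was called. That liver trend ran from 0.11 to 1.36 over 30 alternatives and was called in 6. Each organ was hybridized on slides of its own apart from 1 shared slide, and the part of the slide in these differences was not tested beyond the values without the slide of the second scan day and with the slide as a fixed term or a random block.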

How the results depend on the processing

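Of 3663 values of single genes under the alternatives, 3487 kept their sign and their side of the criteria, 47 lost a call, 23 gained one, no call reversed and 106 changed sign while called in neither. With an offset of 50 the genes called in liver were 2 at 12 Gy and 1 on the trend (4 and 3 in the analysis described), and 241 probes were lower and 202 higher at 12 Gy, not 510 and 280. With the slide as a fixed term 0 genes were called on the liver trend, where Chil3 was at -2.28 (limma, adjusted p = 0.0886), Fabp5 at -2.18 and Itgax at -1.54. On that trend 51 probes then fell and 53 rose, not 436 and 342. The 12 Gy liver values with that term rest on sample 6 alone, so no count is given for them. With the fixed term the difference between organs gave 0 genes, against 5. Without the slide of the second scan day it gave 1, and with the slide as a random block 4. Slides could not be a term for lung at 2 Gy and above. The liver trend without the 12 Gy arrays gave 5 genes. With the probes of a transcript averaged, the lung trend gave 1, Atp6v0d2 at -1.06. Leaving out each sample gave 3 to 4 genes for liver at 12 Gy and for its trend, 0 for lung at 12 Gy and its trend, 4 to 5 for the difference between organs and 5 to 6 for unirradiated lung against liver. The cause of these changes was not tested.

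Atp6v0d2 at 12 Gy in liver was called in 14 of 30 alternatives (adjusted p from 0.00539 to 0.832), the Mrc1 call at 8 Gy was lost with the processed signal (-0.91), with the slide as a fixed term (-0.92) and without sample 5 (-0.98), and the Fabp4 difference between organs was called in 22 of 30 (adjusted p from 0.0167 to 0.842). Chil3 and Fabp5 at 12 Gy in liver were called in all 30, from -3.85 to -1.0 and from -2.92 to -2.32, and Itgax in 28, from -3.04 to -0.77. Scaling to the 75th percentile moved the median of all lung probes at 12 Gy from 0.0948 to 0.253, with 1444 lower and 2242 higher against 1889 and 1331, the series values gave 3186 and 1244, an offset of 50 gave 1008 and 668, and the slide as a random block 710 and 634. Same-numbered liver and lung samples did not deviate together (r from -0.052 to 0.046 over 18 pairs, 6 of which correlated best with their own number), and the replicate block left 5 genes called for the difference between organs and 5 for unirradiated lung against liver.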

Other observations

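Lymphocyte genes fell in lung beside the 9 genes. All 6 B cell genes, all 6 T cell genes and all 5 NK cell genes examined were called lower on the lung trend, with medians of -3.17, -3.85 and -2.05, and in liver 3, 3 and 2 of them were (limma, medians -1.17, -1.08 and -0.49). Of 7 granule genes of neutrophil precursors, 4 fell in lung and 2 in liver. With an offset of 50 these were 1 and 0, with scaling to the 75th percentile 1 and 1, and in lung without the slide of the second scan day 1. Of the mature neutrophil genes 1 of 8 fell in lung, Ly6g (-1.19), and 0 of 7 in liver. All 5 p53 target genes rose in both organs, with Cdkn1a at 5.13 in liver and 2.89 in lung, and 3 of 5 proliferation genes fell in both. None of 5 hepatocyte genes was called in either organ. Of the alveolar type 2 and club cell genes Sftpb fell in lung (-1.19), 1 of 6, and none of 5 was called in liver. The 9 genes share the arrays and the slides with all of these.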
